A study of Rattus norvegicus with 6 samples.

Results

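Expression of 10 genes of the insulin pathway was followed in the liver of adult male Wistar rats. They were the insulin receptor Insr, its substrates Irs1 and Irs2, the PI3-kinase regulatory subunit Pik3r1, the kinases Akt1 and Akt2, the forkhead factors Foxo1 and Foxo3, and the secreted IGF-binding proteins Igfbp1 and Igfbp2. They were chosen by name for their place in the pathway, with earlier results of these data known. Each was read from the probe set that the platform annotation gives to that symbol alone, and from the one with the highest mean where there were several. Such a probe set existed for 9 of the 10 genes, out of 14506 named genes on the array. Irs2 had none and was not analysed here. All 9 lay above the expression filter, a mean over the 6 arrays above the 30th percentile (log2 5.14), which 20450 of 29214 probe sets passed.

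The livers came from 30 rats on 1 of 6 diets. At high protein these were a low fat diet (HP), one with high sucrose (HP-HS), and one with high sucrose and high fat (HP-HS-HF). At normal protein they were the matching diets NP, NP-HS and NP-HS-HF. All rats had first adapted to the NP diet for 10 days, then ate their own diet for 5 weeks, and were killed 2 h after a fixed meal of 87.6 kJ, in the fed state. The 5 livers of a diet gave 1 RNA pool on 1 array, so the spread between rats cannot be seen and no diet has a replicate. A source field of the labels calls the animals mice, while rats are given as the organism and in the protocol for growth. The comparisons ask how the protein content of the diet, and sucrose and fat at each protein level, bear on the liver's transcripts.

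Insulin binds its receptor, a tyrosine kinase, which phosphorylates the IRS proteins. These dock PI3-kinase, whose lipid product activates AKT, and AKT phosphorylates FoxO factors so that they leave the nucleus. In the fasted liver nuclear FoxO drives genes such as Igfbp1 and those of glucose output, and a meal turns them off. The arrays measured transcripts and not the phosphorylation that carries the signal.

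The arrays were alike in scale, with log2 medians that differed by at most 0.033 and pairwise Pearson correlations of 0.9949 to 0.9964 across probe sets. The hepatocyte markers (10 of 10 above the filter) had a summed linear level of 88025 to 91345 on the HP arrays and 87846 to 89277 on the NP arrays, so the tissue label holds. The adipose, muscle and pancreas markers summed to 673 to 695 on the HP arrays and 695 to 715 on the NP arrays, with 7 of 11 above the filter. The 11 macrophage markers differed with protein in their summed level, 4266 to 4896 on the 3 high protein arrays and 3804 to 4168 on the 3 normal protein arrays. In all 3 backgrounds 10 of 11 were higher with high protein, where 14.6% of all probe sets tested were. Of the 11, 0 passed an adjusted p under 0.05 for protein in the limma fit described below. The endothelial markers (6 of 9 measured) summed to 3662 to 3702 on the high protein arrays and 3384 to 3641 on the normal protein arrays, with 6 of 6 fitted differences above 0. Of these 6, 2 were higher with high protein in all 3 backgrounds. The bile duct markers (5 of 7 measured) summed to 306 to 327 on the high protein arrays and 279 to 303 on the normal protein arrays, with 4 of 4 above 0 among those tested. Of the 5, 2 were higher and 1 lower with high protein in all 3 backgrounds. The 9 stellate cell markers overlapped between protein levels. For high sucrose high fat against low fat, 9 of 9 had a fitted difference above 0 (median 0.11, beside -0.0027 over all probe sets tested). In pooled whole liver, a change in the number of such cells and a change in RNA per cell cannot be told apart.

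Igfbp1 and Foxo3 spanned the widest ranges over the 6 diets, 1.74-fold and 1.79-fold, and they ran in opposite directions. Igfbp1 was lowest on NP and highest on HP-HS-HF, and Foxo3 was highest on NP and lowest on HP-HS-HF. The receptor, Irs1 and both AKT genes stayed within 1.08-fold to 1.19-fold over all 6 diets. With the genes' levels put in order over the diets, 6 of 45 gaps between neighbouring diets were wider than the spread expected between single arrays, where 7.82% of the gaps of all probe sets tested were. They lay in 4 of the 9 genes, Pik3r1, Foxo1, Foxo3 and Igfbp1, and 32.6% of all probe sets had at least 1 such gap, so having one does not set a gene apart. That spread was the moderated residual SD of the fit described next (0.078 to 0.186 on the log2 scale over the 9 genes), multiplied by the square root of 2 for a difference between arrays. It also holds any change of a gene's protein difference between backgrounds. For Insr, Foxo1 and Igfbp2 that difference changed sign, so for them it is a weaker yardstick.

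**Figure D1:**
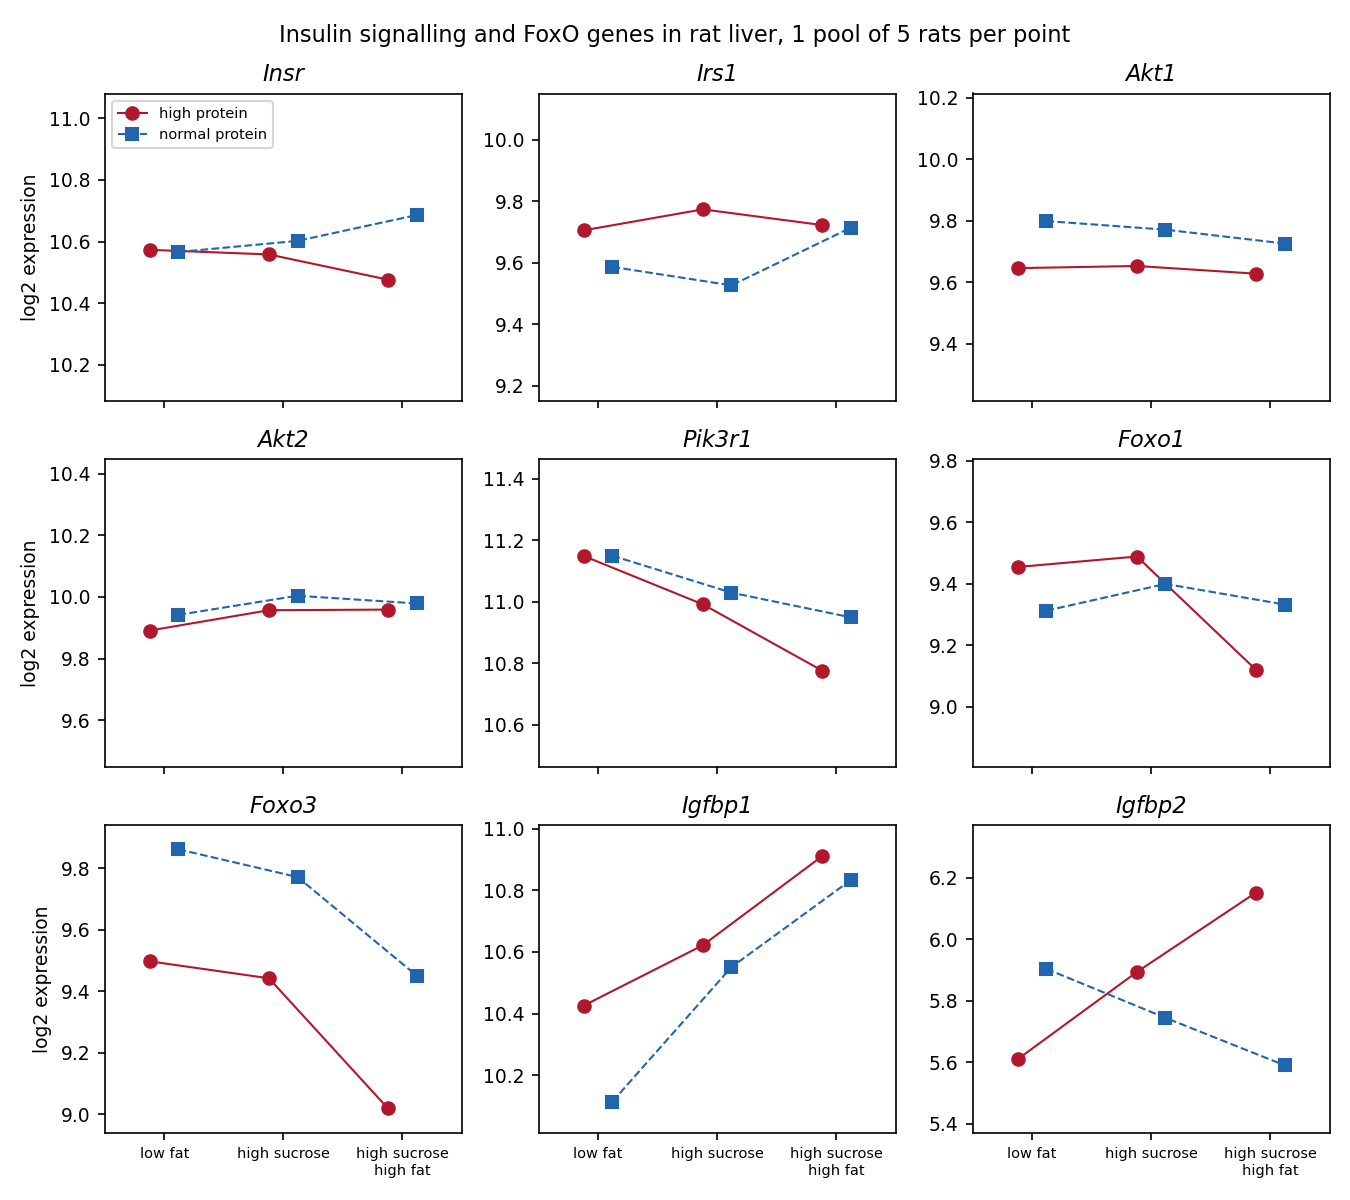
Log2 expression of the 9 genes by dietary background (x axis) for high protein (red circles, left) and normal protein (blue squares, right). Each point is 1 array of a pool of 5 rats, and every panel spans the same height of 1 log2 unit. Foxo3 is lower with high protein in each background, at 9.02 on HP-HS-HF against 9.45 on NP-HS-HF, Igfbp1 climbs along the backgrounds at both protein levels, and the lines of Igfbp2 cross.

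The protein content was tested with limma in 1 model of the 6 arrays that had a term for protein and a term for dietary background, and p-values were adjusted by Benjamini-Hochberg over the 20450 probe sets. None of the 9 genes passed an adjusted p under 0.05 for protein, a threshold that 0.044% of all probe sets tested passed. At an unadjusted p under 0.05, which 8.71% of probe sets reached, 1 of the 9 was counted, Foxo3. An ordinary t statistic also called 0 of the 9. The genes' median difference was -0.04 on the log2 scale, beside -0.0014 over all probe sets tested, and their median absolute difference was 0.12, beside 0.064 over all.

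For the backgrounds, 0 of the 9 genes passed an adjusted p under 0.05 in limma for sucrose (high sucrose against low fat), for fat (high sucrose high fat against high sucrose) or for sucrose and fat together (high sucrose high fat against low fat), and 0% of all probe sets passed in each of the 3. At an unadjusted p under 0.05 the sucrose comparison counted 1 gene, Igfbp1, where 3.02% of probe sets were counted. The fat comparison counted 2, Foxo3 and Igfbp1, where 4.95% were counted. The sucrose and fat comparison counted 3, Pik3r1, Foxo3 and Igfbp1, where 5.18% were counted. By an ordinary t statistic 0 of the 9 passed after adjustment in these comparisons. The residual of the model, with 2 degrees of freedom, is the departure of the 6 arrays from additive effects of protein and background. The SE and p-values of limma rest on that residual moderated towards a spread common to all probe sets, with 4.37 prior degrees of freedom.

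Between single arrays of the same background, high protein differed from normal protein by 1.2-fold or more in 3 of the 9 genes with low fat (Foxo3, Igfbp1 and Igfbp2), in 1 with high sucrose (Foxo3) and in 2 with high sucrose high fat (Foxo3 and Igfbp2), where 12.4%, 11.9% and 14.6% of all probe sets did. Going from low fat to high sucrose, 1 gene was counted at high protein (Igfbp2, background 9.03%) and 1 at normal protein (Igfbp1, background 9.54%). Going from high sucrose to high sucrose high fat, 3 were counted at high protein (Foxo1, Foxo3 and Igfbp1, background 11.3%) and 2 at normal protein (Foxo3 and Igfbp1, background 9.71%). The whole step from low fat to high sucrose high fat counted 5 at high protein (Pik3r1, Foxo1, Foxo3, Igfbp1 and Igfbp2, background 11.9%) and 3 at normal protein (Foxo3, Igfbp1 and Igfbp2, background 11.7%).

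At 1.5-fold or more, 1 of these 9 pairs of arrays counted a gene, Igfbp1 in the whole step at normal protein, where 1.16% of probe sets were counted. The other 8 pairs counted 0 of the 9 genes. Their background was 1.38% for protein with low fat, 1.39% with high sucrose and 1.5% with high sucrose high fat. For sucrose it was 0.89% at high protein and 0.866% at normal protein, for fat 1.27% at high protein and 0.934% at normal protein, and for the whole step at high protein 1.19%. These differences have no replicate.

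**Figure D2:**
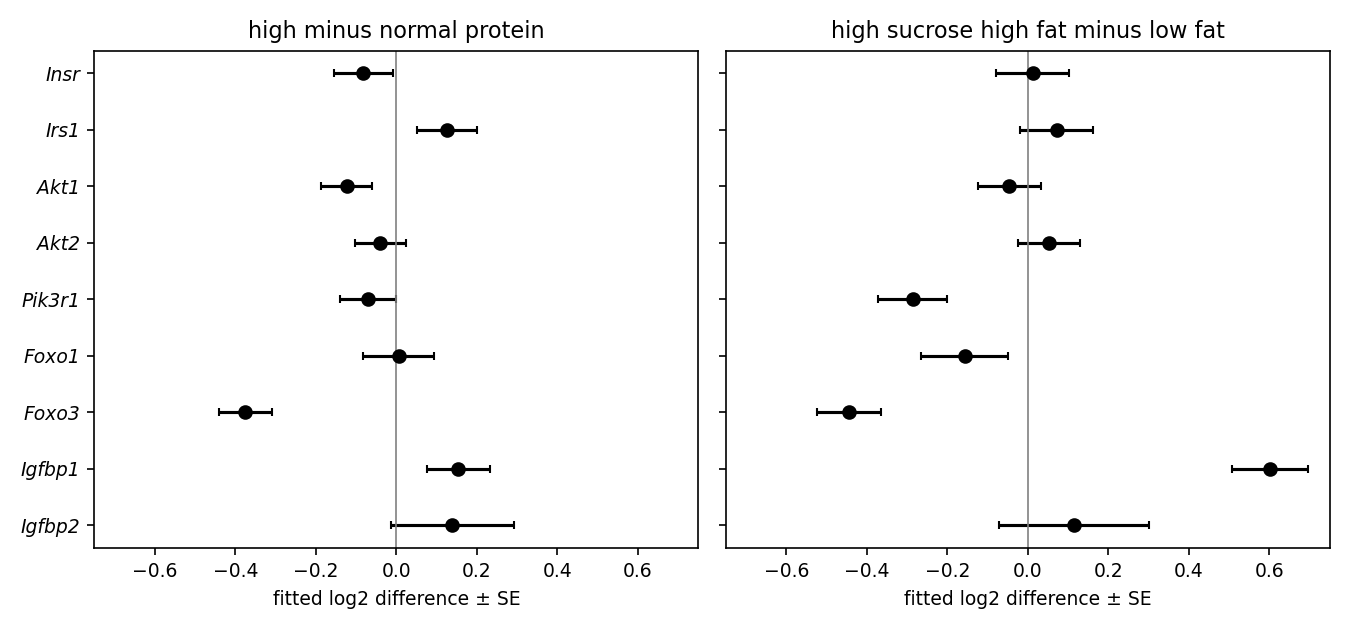
Fitted log2 differences with their SE from limma over 6 arrays, for high minus normal protein (left) and high sucrose high fat minus low fat (right). Foxo3 stands at -0.38 and -0.44 and Igfbp1 at 0.15 and 0.60, while the other genes lie nearer to 0.

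At the head of the pathway stands Insr, the insulin receptor. Its probe set 10756251 read 10.57 on HP, 10.56 on HP-HS and 10.48 on HP-HS-HF, against 10.57 on NP, 10.60 on NP-HS and 10.69 on NP-HS-HF. The protein levels were alike on low fat and moved apart along the backgrounds, to a difference of -0.21 with high sucrose and high fat. The fitted protein difference was -0.08 ± 0.073 (SE, limma adjusted p = 0.828). A second, dimmer Insr probe set, 10756229, read 9.33, 9.38 and 9.28 on the 3 high protein arrays in the same order of backgrounds, against 9.36, 9.42 and 9.45 on the 3 normal protein arrays. Its fitted protein difference was -0.08 ± 0.068 (SE, limma adjusted p = 0.816), and here too the widest separation was with high sucrose and high fat. No gap between neighbouring diets in the order of Insr levels exceeded the spread between single arrays.

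Irs1, the docking protein that the receptor phosphorylates first, read 9.71 on HP, 9.77 on HP-HS and 9.72 on HP-HS-HF, against 9.59 on NP, 9.53 on NP-HS and 9.71 on NP-HS-HF. It was higher with high protein in each background, by 0.12, 0.25 and 0.01, but HP lay 0.01 below NP-HS-HF, so the groups overlapped. The fitted difference was 0.13 ± 0.074 (SE, limma adjusted p = 0.728), and the neighbours in its order of diets did not differ beyond the spread. Of all probe sets, 14.6% were higher with high protein in all 3 backgrounds, and 2 of the 9 genes were, Irs1 and Igfbp1.

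Pik3r1 encodes the p85 alpha subunit that ties PI3-kinase to the IRS proteins. It read 11.15 on HP, 10.99 on HP-HS and 10.78 on HP-HS-HF, against 11.15 on NP, 11.03 on NP-HS and 10.95 on NP-HS-HF. The level stepped down from low fat to high sucrose to high sucrose high fat at both protein levels, an order that 3% of all probe sets shared and that 2 of the 9 genes showed, Pik3r1 and Foxo3. From low fat to high sucrose high fat the difference was -0.37 at high protein and -0.20 at normal protein, and the fitted one was -0.29 ± 0.086 (SE, unadjusted p = 0.0142, limma adjusted p = 0.877). HP-HS-HF stood 0.17 below the next diet, more than the spread between single arrays (0.12), while the other neighbours did not differ beyond it. The fitted protein difference was -0.07 ± 0.070 (SE, limma adjusted p = 0.854).

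Akt1, a kinase expressed in most tissues, is a relay between PI3-kinase and FoxO. It read 9.65 on HP, 9.65 on HP-HS and 9.63 on HP-HS-HF, against 9.80 on NP, 9.77 on NP-HS and 9.73 on NP-HS-HF. All 3 high protein arrays lay below all 3 normal protein arrays, as they did for 7.58% of all probe sets and 1 of the 9 genes, a share near that background. Its fitted difference was small, -0.12 ± 0.064 (SE, 1.09-fold, limma adjusted p = 0.682), and each gap in its order of diets was within the spread between single arrays.

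Akt2, the form that prevails in liver and fat and on which insulin's metabolic action mainly rests, varied least of the 9 genes. It read 9.89 on HP, 9.96 on HP-HS and 9.96 on HP-HS-HF, against 9.94 on NP, 10.00 on NP-HS and 9.98 on NP-HS-HF. The high protein value was the lower one in each background, by 0.05, 0.05 and 0.02, with a fitted difference of -0.04 ± 0.064 (SE, limma adjusted p = 0.922). Being lower with high protein in all 3 backgrounds held for 14.9% of probe sets and for 4 of the 9 genes, Akt1, Akt2, Pik3r1 and Foxo3.

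Foxo1, the FoxO factor best known for driving glucose output in liver, read 9.45 on HP, 9.49 on HP-HS and 9.12 on HP-HS-HF, against 9.31 on NP, 9.40 on NP-HS and 9.33 on NP-HS-HF. The HP-HS-HF array alone stood apart, 0.19 below the next diet against a spread of 0.15 between single arrays, and the other neighbours did not differ beyond it. The protein difference was 0.14 with low fat, 0.09 with high sucrose and -0.21 with high sucrose high fat, so the fitted one was near 0 at 0.01 ± 0.089 (SE, limma adjusted p = 0.993). Fat added to high sucrose went with a difference of -0.37 at high protein and -0.07 at normal protein, and the fitted value was -0.22 ± 0.11 (SE, limma adjusted p = 0.999).

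Foxo3, a FoxO factor tied to stress resistance and cell survival genes, had the largest fitted difference with protein of the 9. It read 9.50 on HP, 9.44 on HP-HS and 9.02 on HP-HS-HF, against 9.86 on NP, 9.77 on NP-HS and 9.45 on NP-HS-HF. High protein was lower by 0.36 beside low fat, 0.33 beside high sucrose and 0.43 on the high sucrose high fat background, which is 1.26-fold to 1.35-fold. The groups overlapped by a little, because NP-HS-HF was below HP. The fitted protein difference was -0.38 ± 0.066 (SE, 1.3-fold, unadjusted p = 0.00101, limma adjusted p = 0.163), rank 126 by p among the 20450 probe sets. It was the 1 gene of the 9 to differ by 1.2-fold or more with protein in each background, where 1.76% of all probe sets did.

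Fat was the larger part of the background difference of Foxo3. High sucrose high fat was below high sucrose by 0.42 at high protein and by 0.32 at normal protein, while high sucrose was below low fat by 0.05 at high protein and by 0.09 at normal protein. The fitted difference was -0.37 ± 0.080 for fat (SE, limma adjusted p = 0.81) and -0.07 ± 0.080 for sucrose (SE, limma adjusted p = 1). For sucrose and fat together it was -0.44 ± 0.080 (SE, unadjusted p = 0.00121, limma adjusted p = 0.76), rank 28 of 20450. In the order of diets HP-HS, NP-HS-HF and HP did not differ beyond the spread between single arrays (0.11), nor did NP-HS and NP, while HP-HS-HF stood 0.42 below the first of these and a gap of 0.27 parted HP from NP-HS. Beside these differences, all 11 macrophage markers had a fitted protein difference above 0 (median 0.21, beside -0.0014 over all probe sets tested). For fat, 10 of 11 had a fitted difference below 0 (median -0.19, beside -0.0026 over all). In either comparison 0 of the 11 passed an adjusted p under 0.05 in limma. The part of these markers in the result was not tested.

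Igfbp1 encodes a liver-secreted protein that binds IGF-1, and its transcript is a classic readout of low insulin action because FoxO factors drive it. Its promoter is shown because it holds the insulin response element through which that control is known. The window is chr14:86261027-86261326 (GRCr8, plus strand, from RefSeq), from 250 bases before to 50 bases after the start of the gene. Capitals mark matches to the insulin response cores TGTTTTG and TATTTTG, searched on both strands. The Insr window, chr12:6128754-6129053 (GRCr8, minus strand, from RefSeq, printed in the sense of the gene), is shown beside it because it holds the only match to the FoxO consensus core GTAAACA among the genes searched, in capitals on the reverse strand as TGTTTAC.
Igfbp1: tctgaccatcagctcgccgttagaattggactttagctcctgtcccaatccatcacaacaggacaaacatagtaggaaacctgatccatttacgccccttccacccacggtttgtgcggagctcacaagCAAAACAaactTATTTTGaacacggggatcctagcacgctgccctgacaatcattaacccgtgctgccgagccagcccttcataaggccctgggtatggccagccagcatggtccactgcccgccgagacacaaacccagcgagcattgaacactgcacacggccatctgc
Insr: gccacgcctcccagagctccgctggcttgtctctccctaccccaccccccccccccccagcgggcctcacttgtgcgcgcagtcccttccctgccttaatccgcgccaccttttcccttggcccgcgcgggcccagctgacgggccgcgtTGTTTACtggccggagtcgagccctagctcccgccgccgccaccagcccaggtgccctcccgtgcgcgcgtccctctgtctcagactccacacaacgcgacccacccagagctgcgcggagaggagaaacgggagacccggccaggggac

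RefSeq promoter windows matched 8 of the 10 genes, and Foxo3 and Irs2 are named only. In Igfbp1 the core TGTTTTG lay on the reverse strand from -121 to -115 and TATTTTG on the forward strand from -110 to -104, with 4 bases between them and no overlap. Among 33469 rat promoter windows of the same length, 6.28% held TGTTTTG, 4.96% held TATTTTG and 0.43% held both. Both cores without overlap and starting at most 13 bases apart were found in 12 windows, 0.0359% of them. These cores are those of the known insulin response element of Igfbp1, so its own match was given beforehand and the share does not test it. GTAAACA was found in 3.78% of windows, and in Insr it lay from -100 to -94. The windows of Irs1, Akt1, Akt2, Pik3r1, Foxo1 and Igfbp2 held none of the 3 cores. A match describes letters in this window and is not evidence of binding.

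Igfbp1 read 10.43 on HP, 10.62 on HP-HS and 10.91 on HP-HS-HF, against 10.11 on NP, 10.55 on NP-HS and 10.83 on NP-HS-HF. It stepped up from low fat to high sucrose to high sucrose high fat at both protein levels, an order that 2.89% of all probe sets and, of the 9 genes, Igfbp1 alone had. From low fat to high sucrose high fat it was higher by 0.48 at high protein (1.4-fold) and by 0.72 at normal protein (1.65-fold). The difference at normal protein was the 1 of 1.5-fold or more noted above. The fitted difference for sucrose and fat was 0.60 ± 0.095 (SE, 1.52-fold, unadjusted p = 0.000562, limma adjusted p = 0.76), rank 14 by p among the 20450 probe sets. The fitted steps were 0.32 ± 0.095 for sucrose (SE, limma adjusted p = 1) and 0.29 ± 0.095 for fat (SE, limma adjusted p = 0.934).

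Protein made a smaller difference to Igfbp1. It was higher with high protein by 0.31 beside low fat, 0.07 beside high sucrose and 0.08 on the high sucrose high fat background, and the fitted difference was 0.15 ± 0.077 (SE, limma adjusted p = 0.665). The NP array stood apart, 0.31 below the next diet, HP. In the order of diets a gap of 0.21 also parted HP-HS from NP-HS-HF, and the other neighbours did not differ beyond the spread between single arrays (0.13).

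Igfbp2, another IGF-binding protein, which is made in plenty by fetal rat liver and less by the adult, was dim on these arrays. It read 5.61 on HP, 5.89 on HP-HS and 6.15 on HP-HS-HF, against 5.90 on NP, 5.74 on NP-HS and 5.59 on NP-HS-HF. Along the backgrounds it stepped up at high protein and down at normal protein, so that high protein was lower by 0.29 on low fat and higher by 0.15 and by 0.56 on the sucrose diets. An additive fit leaves most of this in the residual. It gave 0.14 ± 0.15 for protein (SE, limma adjusted p = 0.875), with an SE of 0.25 for the ordinary t statistic, which is not moderated. The moderated residual SD, at 0.19, was the widest of the 9. The spread derived from that residual (0.26) holds the crossing itself. The gaps of Igfbp2 were among the 45 counted and none exceeded that spread, which therefore cannot judge the order of its diets. The crossing was not tested.

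The genes nearest in pattern were taken for Foxo3 and Igfbp1, the pair with the widest ranges. The measure was the root mean square distance between log2 values centred on each gene's own mean over the 6 arrays, over 11420 other named genes. For Foxo3 the nearest were the chemokine Cxcl10 (0.076), the SH2-domain protein Sh2d4a (0.076) and the liver pyruvate kinase Pklr (0.085). Pklr read 10.13 on HP, 9.97 on HP-HS and 9.74 on HP-HS-HF, against 10.63 on NP, 10.46 on NP-HS and 10.22 on NP-HS-HF. For Igfbp1 they were Spink1l (0.063), the clock factor Bmal1 (0.070) and the phosphatase Phospho2 (0.079). Bmal1 read 6.24 on HP, 6.25 on HP-HS and 6.59 on HP-HS-HF, against 5.82 on NP, 6.24 on NP-HS and 6.65 on NP-HS-HF. These values share the same 6 arrays, and with 6 points some of so many genes will lie near any pattern.

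**Figure D3:**
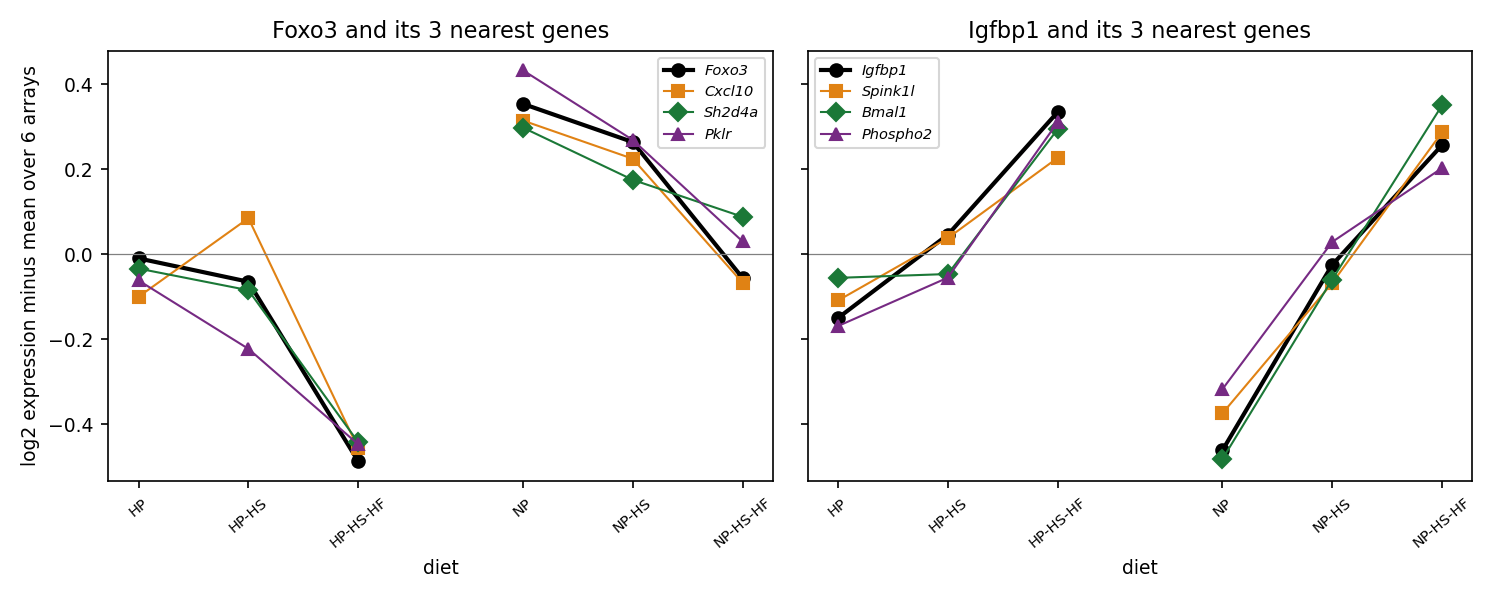
Log2 expression minus each gene's mean over the 6 arrays (y axis) by diet (x axis), for Foxo3 (left panel) and Igfbp1 (right panel) in black and their 3 nearest genes in colour, 1 array per point. Foxo3 and its neighbours are lowest on HP-HS-HF, and Igfbp1 and its neighbours are lowest on NP.

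Other genes of the pathway were counted from 7 lists, and 0 of their members passed an adjusted p under 0.05 in limma in any of the 4 comparisons. Between receptor and PI3-kinase, 12 genes were tested, and for protein 5 lay above 0 and 7 below, with a median of -0.02 and 0 at an unadjusted p under 0.05. Irs3, an IRS protein that rodents have, read 6.59 on HP, 6.74 on HP-HS and 6.78 on HP-HS-HF, against 6.57 on NP, 6.86 on NP-HS and 6.87 on NP-HS-HF, and its fitted difference for sucrose and fat was 0.25 ± 0.083 (SE, limma adjusted p = 0.881). Igf1r, the related IGF-1 receptor, was at 0.09 ± 0.064 for protein, and the adaptor Gab1 at -0.13 ± 0.071 (SE each).

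Among 14 brakes on the pathway, 1 was higher with high protein at an unadjusted p under 0.05, the cytokine-induced inhibitor Socs3, and 0 were lower, where 4.68% of all probe sets were higher and 4.03% lower. The median was -0.03 for protein and 0.05 for sucrose and fat. Phlpp2, a phosphatase that acts on AKT, was at -0.15 ± 0.12 for protein and the AKT-binding pseudokinase Trib3 at 0.20 ± 0.11 (SE each). The largest fitted difference downward was that of Socs2, at -0.25 ± 0.39 (SE). Between single arrays its protein difference was -0.34 with low fat, -1.39 with high sucrose and 0.97 with high sucrose high fat. That change of sign was not tested. Of 14 genes around AKT, mTOR and GSK3, 4 lay above 0 and 10 below for protein, with 0 at an unadjusted p under 0.05 and a median of -0.03. Ddit4, an inhibitor of mTOR complex 1, was at 0.16 ± 0.067 and Gsk3b, a kinase that AKT inhibits, at -0.12 ± 0.072 (SE each). Of 10 FoxO partners, 2 lay above 0 and 8 below for protein, with a median of -0.02. At an unadjusted p under 0.05, 1 was higher and 0 were lower, beside the same 4.68% and 4.03% of all probe sets. The 1 was Stk4, a kinase that phosphorylates FoxO factors, at 0.19 ± 0.071 (SE, unadjusted p = 0.0371, limma adjusted p = 0.528). Foxo4 was at 0.01 ± 0.068, and below 0 the largest differences were Crtc2 at -0.10 ± 0.074 and Foxa2 at -0.08 ± 0.094 (SE each).

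FoxO and fasting targets lay on both sides of 0. Of 23 tested, 5 were higher and 3 lower with high protein at an unadjusted p under 0.05, beside the same 4.68% and 4.03% of all probe sets, with a median of -0.01. The largest difference upward was that of Pck1, the rate-setting enzyme of glucose synthesis, at 0.36 ± 0.066 (SE, limma adjusted p = 0.181). Pck1 read 12.45 on HP, 12.53 on HP-HS and 12.64 on HP-HS-HF, against 12.11 on NP, 12.12 on NP-HS and 12.33 on NP-HS-HF. Its high protein arrays were all above its normal protein arrays (7.35% of all probe sets). Next was the antiproliferative Tob1 at 0.30 ± 0.074 (SE, limma adjusted p = 0.309). Tob1 read 10.03 on HP, 10.03 on HP-HS and 10.04 on HP-HS-HF, against 9.83 on NP, 9.60 on NP-HS and 9.76 on NP-HS-HF, with all high protein arrays above all normal protein arrays, as for 7.35% of probe sets. Lower were the ubiquitin ligase subunit Fbxo32, also called atrogin-1, at -0.39 ± 0.071 (SE, limma adjusted p = 0.173) and the thioredoxin inhibitor Txnip at -0.33 ± 0.093 (SE, limma adjusted p = 0.392). Fbxo32 read 5.95 on HP, 6.15 on HP-HS and 5.91 on HP-HS-HF, against 6.29 on NP, 6.65 on NP-HS and 6.24 on NP-HS-HF. All its high protein arrays were below all its normal protein arrays, as for 7.58% of all probe sets.

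For sucrose and fat, 4 of the 23 targets were higher and 1 lower at an unadjusted p under 0.05, where 2.57% of all probe sets were higher and 2.61% lower, with a median of -0.06. Pdk4, the kinase that shuts off pyruvate dehydrogenase, was at 0.94 ± 0.30 (SE, limma adjusted p = 0.877). The lipase inhibitor Angptl4 was at 0.75 ± 0.17 (SE, limma adjusted p = 0.804). Pdk4 read 9.69 on HP, 9.54 on HP-HS and 11.29 on HP-HS-HF, against 10.00 on NP, 9.68 on NP-HS and 10.27 on NP-HS-HF. The HP-HS-HF array was thus the highest for Pdk4. The same array was the lowest for Insr, Pik3r1, Akt1, Foxo1 and Foxo3 and the highest for Igfbp1 and Igfbp2. For Insr, Akt1, Igfbp1 and Igfbp2 its gap to the next diet did not exceed the spread between single arrays. How many of all probe sets had their extreme on this array was not counted, so this does not set these genes apart. A link between Pdk4 and the FoxO genes was not tested. G6pc1, glucose-6-phosphatase, which stood at 12.18 on HP-HS-HF, lay between 11.68 and 11.81 on the other 5 arrays. The antioxidant regulator Sesn3 was at -0.23 ± 0.082 for sucrose and fat (SE, limma adjusted p = 0.9).

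Genes that insulin induces in liver were on the low side. Of 12 tested, 11 lay below 0 for protein and 6 of them at an unadjusted p under 0.05, against 1 higher, where 4.03% of all probe sets were lower and 4.68% higher. The median was -0.26, beside -0.0014 over all probe sets. For sucrose and fat 11 of 12 lay below 0, 1 of them at an unadjusted p under 0.05 (2.61% of all probe sets), with a median of -0.12, beside -0.0027 over all. Me1, malic enzyme, read 7.39 on HP, 7.64 on HP-HS and 7.45 on HP-HS-HF, against 8.08 on NP, 8.21 on NP-HS and 7.89 on NP-HS-HF, with all high protein arrays below all normal protein arrays (7.58% of all probe sets) and a limma adjusted p of 0.104. Egr1, an immediate early factor, was the 1 gene above 0 for protein, at 0.30 ± 0.095 (SE, limma adjusted p = 0.457). In the IGF system, 7 of 10 lay above 0 for protein (median 0.06) and 0 reached an unadjusted p under 0.05. Igf1, the hormone that Igfbp1 binds, was at 0.01 ± 0.069 for protein and -0.10 ± 0.084 for sucrose and fat, and Igfbp3, the main carrier of IGF-1 in blood, at 0.16 ± 0.073 for protein (SE each).

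**Figure D4:**
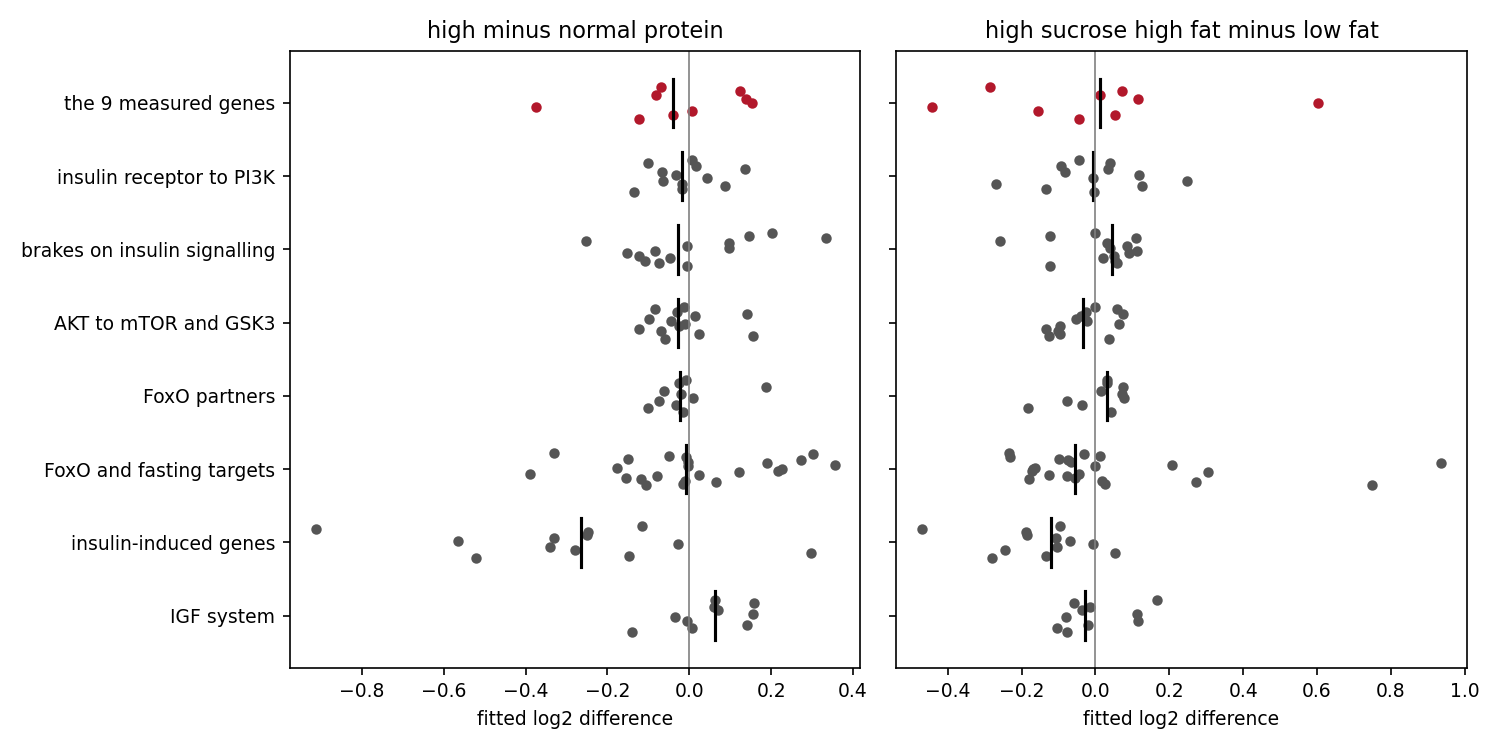
Fitted log2 differences (x axis) of the 9 measured genes (red) and of the tested genes of 7 pathway lists (grey), 1 point per gene, with the median as a black bar, for high minus normal protein (left) and high sucrose high fat minus low fat (right). The medians lie within 0.07 of 0 apart from the insulin-induced genes, at -0.26 and -0.12.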

How the data were processed

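Per the submitters' processing notes, the authors summarised the arrays by RMA, and the deposited values are log2 expression per probe set. For RMA, no version or setting is stated in what was used here. Per the labels' protocols, 1500 ng of RNA per rat was pooled, its integrity number was at least 7.0, and 100 ng was labelled for Affymetrix whole-transcript arrays. The number of arrays limits the precision.

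Of 15310 probe sets with 1 gene symbol in the platform annotation, 15279 matched the RefSeq gene table (GRCr8) by Entrez number and 0 symbols changed. Another 323 had several symbols and 13581 were not listed, and these named no gene.

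The model (limma 3.58.1, R 4.3.3) had terms for protein level and background on all 6 arrays, with 2 residual and 4.37 prior degrees of freedom. With no replicate pools, p-values reflect the spread among these 6 arrays alone. The code was checked on simulated data. The genes and lists were chosen with earlier results of these data known. Named beside the 10 genes were, per list, the 2 largest differences in each direction for protein and for sucrose and fat, of which a part is given, with the 3 nearest genes of the pair with the widest ranges. G6pc1 lay outside this rule and was chosen after its values were seen. Igf1 fell within the rule for sucrose and fat, and it too was picked for the text with its values seen. Alternatives changed the filter, the normalization, the variance model, the probe sets and the arrays used.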

Additional observations from a re-analysis of the deposited data

Results flagged for a closer look

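Igfbp2 differed between diets in opposite directions. From low fat to high sucrose high fat its log2 difference was 0.54 at high protein and -0.31 at normal protein. The difference between high and normal protein was 0.56 on the high sucrose high fat background and -0.29 on low fat. These are the same 4 arrays read along both factors, each difference exceeds 1.2-fold, and with 1 array per diet the contrast between them was not tested. At a mean of 5.82 Igfbp2 was the dimmest of the 9 genes, above the filter of 5.14 and left out when the filter was set at the 50th percentile.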

How the results depend on the processing

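The count of genes past an adjusted p under 0.05 was 0 of 9 for each of the 4 comparisons under all 14 alternatives, or 0 of 8 where a filter at the 50th percentile left out Igfbp2. No single gene crossed that threshold under them, and the lowest adjusted p for Foxo3 was 0.0845 for protein. The fitted differences for protein ran from -0.399 to -0.347 for Foxo3 and for sucrose and fat from 0.483 to 0.721 for Igfbp1 when 1 array was left out. The protein difference ran from -0.127 to -0.019 for Insr, 0.064 to 0.183 for Irs1, -0.105 to -0.019 for Pik3r1 and 0.075 to 0.195 for Igfbp1, the sucrose difference from -0.108 to -0.038 for Foxo3 and 0.197 to 0.435 for Igfbp1, and the fat difference from -0.382 to -0.054 for Foxo1, each keeping its direction. Of 500 values of a gene's comparison under an alternative, 470 kept their direction and 30 turned, 26 of these with an array left out. The other 4 were of Insr, which read -0.003 for fat and 0 for sucrose and fat when quantile normalized again, -0.001 for fat when centred on array medians and -0.019 for fat with its probe sets averaged. Part of the 470 was fixed by the design. Without NP or HP the fat difference stays that of the full fit (-0.372 for Foxo3). Leaving out either array of a background gives the same protein difference, as -0.381 for Foxo3 without NP and without HP. The count is thus no measure of stability. With 1 array left out, the protein difference ran from -0.062 to 0.115 for Foxo1 and from -0.072 to 0.355 for Igfbp2. The sucrose difference ran from -0.056 to 0.078 for Insr, -0.088 to 0.095 for Irs1, -0.033 to 0.013 for Akt1, -0.041 to 0.163 for Foxo1 and -0.262 to 0.386 for Igfbp2. The fat difference ran from -0.094 to 0.097 for Insr, -0.023 to 0.16 for Irs1, -0.026 to 0.003 for Akt2 and -0.265 to 0.368 for Igfbp2. The sucrose and fat difference ran from -0.084 to 0.107 for Insr, -0.015 to 0.159 for Irs1, -0.321 to 0.007 for Foxo1 and -0.21 to 0.438 for Igfbp2. At 1.2-fold in place of 1.5-fold, the genes counted between high and normal protein were 3 with low fat, 1 with high sucrose and 2 with high sucrose high fat. Along the backgrounds they were 1 for sucrose, 3 for fat and 5 for both at high protein, and 1, 2 and 3 at normal protein, since a lower fold counts more genes. The background term of the model already matches high and normal protein arrays within each background. No paired analysis was possible because, beyond that matching, no diet has more than 1 array to pair by replicate number.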
